A study of Mus musculus with 6 samples.

Results

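The genes described here are 41 genes that mouse embryos use to compact and to form the blastocyst: adhesion proteins, keratins, tight junction, desmosome and gap junction proteins, polarity and cortical proteins, and carriers of water and ions. They were taken by symbol from the 46072 genes of the count tables, and each symbol had 1 row. Of these, 35 had enough counts to be tested and 6 (Krt7, Krt19, Cldn3, Dsg2, Gjb5 and Aqp8) did not.

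Zygotes had been injected with siRNA against Son, and RNA was taken from the 4-cell embryos. Son encodes a nuclear speckle protein that acts in splicing. The protocol was Smart-Seq2, which copies whole transcripts into cDNA and keeps no strand, and each group, control and Son siRNA, had 3 libraries. The labels do not give the strain, the control injection, the number of embryos in a library or their litters. The p-values therefore measure the spread between these libraries alone, and that spread may be technical.

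Compaction is the flattening of blastomeres against each other, and in the mouse it follows the 4-cell stage. E-cadherin, encoded by Cdh1, joins neighbouring cells and is linked by catenins to actin, while apical proteins such as the PAR complex and ezrin mark the outer surface. Tight junctions then seal the outer layer, gap junctions couple the cells, and Na,K-ATPase with aquaporins moves the fluid that fills the blastocoel. The 4-cell embryo still holds maternal RNA beside early embryonic transcripts, and most of these structures are built later.

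Totals per library were 104634855 to 118865650 units of estimated counts, and levels are given as CPM, the share of a library's total counts after scaling with TMM factors, which were 0.81 to 1.05 in controls and 1.02 to 1.16 after siRNA. Genes with a count above 0 numbered 19102 to 20411 in controls and 20996 to 21337 after siRNA. Son itself had 249, 322 and 332 CPM in controls 1 to 3 and 41.03, 28.0 and 25.1 CPM in siRNA libraries 1 to 3 (log2 -3.26, edgeR adjusted p = 0.00991). Of 10 oocyte and early embryo markers, 9 had counts in each of the 6 libraries and Zar1 was at 0 in control 1. Their summed level was 494 to 1100 CPM in controls and 739 to 1090 CPM after siRNA. Without overlap, siRNA values were 2.30-fold higher for Gdf9, 1.58-fold for Zp3 and 1.67-fold for Zscan4c, and 3.52-fold lower for Pou5f1 (DESeq2 adjusted p = 0.0368), while edgeR called 0 of the 10. The part of these shifts in the results below was not tested. Of 15 cumulus and granulosa markers, Fshr, Foxl2, Inha, Inhba, Lhcgr and Hsd3b1 were at 0 in all 6 libraries. The summed level of that list was 7.69 to 19.1 CPM in controls and 21.1 to 28.8 CPM after siRNA, most of it from Amhr2, which had 6.53 to 17.1 CPM in controls and 19.7 to 27.6 CPM after siRNA. Others of that list, such as Star, Inhbb and Ptgs2, had counts at lower levels. Hbb-bs, Hbb-bt and Ptprc of 9 blood markers and Tnp2, Odf1, Smcp and Spem1 of 10 sperm markers were at 0 as well. The blood list summed to 10.1 to 17.2 CPM in controls and 11.3 to 12.2 CPM after siRNA. The sperm list summed to 13.7 to 30.5 and 26.8 to 34.6 CPM, most of it from Odf2 (12.8 to 29.8 and 25.6 to 34.1 CPM). Hba-a1 had 4.14 to 9.80 and 6.07 to 6.78 CPM, and Hba-a2 had 1.72 to 2.36 and 3.42 to 3.86 CPM. Spi1 had 3.49, 2.85 and 0.156 CPM in controls and 0.182, 0.239 and 0.204 CPM after siRNA. The groups overlapped for Spi1 (log2 -3.37, edgeR adjusted p = 0.166, DESeq2 adjusted p = 0.0123). The source of these counts was not tested.

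Among the 35 tested genes, lower levels after Son siRNA were seen for the gap junction gene Gja1, the tight junction genes F11r, Cldn4 and Tjp1 and the aquaporin gene Aqp9, by 1.99-fold to 8.80-fold. None of the 35 passed edgeR's quasi-likelihood test at an adjusted p of 0.05 (Benjamini-Hochberg over all genes): 0 of the 35 were lower and 0 higher. Of all 17788 tested genes, 0.899% were lower and 0.0899% higher, 0.989% together. At an unadjusted p under 0.05 edgeR gave 7 lower genes and 1 higher gene, against 8.86% and 5.88% of all tested genes. DESeq2's Wald test called 5 genes lower (Gja1, F11r, Aqp9, Cldn4 and Tjp1) and 0 higher, against 4.74% and 2.33% of all genes with an adjusted p. In such bulk libraries fewer cells of a type and less RNA per cell cannot be told apart.

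The siRNA libraries all lay below the controls for 8 of the 35 genes and all lay above them for 1, where 11.6% and 12.1% of all tested genes did so. The 8 were Gja1, F11r, Aqp9, Cldn4, Tjp1, Cdh1, Ctnna1 and Aqp3, and the 1 was Rdx. The lower genes lie on 8 different chromosomes. The 8 genes with the smallest unadjusted p (Gja1, F11r, Aqp9, Cldn4, Tjp1, Ocln, Rdx and Cdh1) share 0 exonic bases with other annotated genes. With total counts in place of TMM the numbers were 5 and 2, and the median over all tested genes shifted by 0.29 on the log2 scale. The median log2 fold change of the 35 genes was -0.06, against 0.02 for all tested genes, and 20 of 35 lay below 0, against 48.7% of all tested genes. The median was 0.19 with total counts and 0.02 without control 2, and it was -0.24 without control 3 and -0.25 without siRNA library 2, where 25 of 35 lay below 0.

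**Figure D1:**
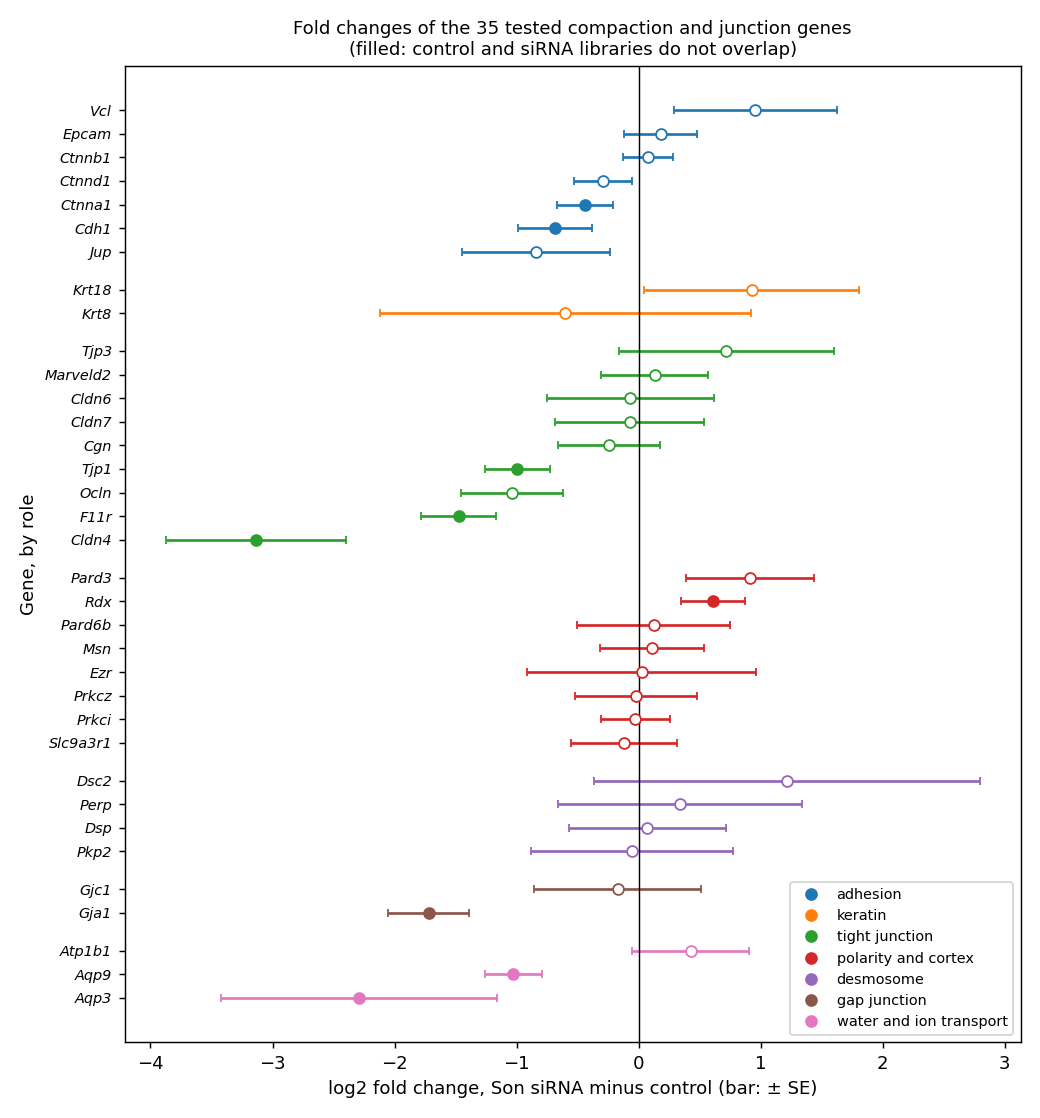
Log2 fold change (Son siRNA minus control, edgeR, bars ± SE) of the 35 tested genes, grouped and coloured by role, with filled points where the 3 control and 3 siRNA libraries do not overlap. Cldn4 lies at -3.14, Gja1 at -1.72 and F11r at -1.47, and Rdx, at 0.61, is the filled point to the right of 0.

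Gja1 encodes connexin 43, a gap junction channel protein, and had the smallest adjusted p of the 41 genes (ENSMUSG00000050953, chr10:56377330-56402513 on GRCm38). It had 799, 559 and 1384 CPM in controls 1 to 3 and 280.2, 326 and 227 CPM in siRNA libraries 1 to 3. Each siRNA library was below the lowest control, and control 3 stood highest. The means were 914 ± 424 and 278 ± 49.9 CPM in controls and siRNA libraries (SD, n = 3 each; pairs of means below are in this order), a log2 difference of -1.72 (SE 0.333) with an edgeR adjusted p of 0.0554 and a DESeq2 adjusted p of 0.000101. Without control 2 edgeR's adjusted p was 0.0303 (log2 -1.97), and with a filter of 50 units in 3 libraries it was 0.0345. None of the 41 genes passed edgeR's test without a filter, under other scalings, with a replicate block or without any other library. For each of the single genes described here, the exact two-sided permutation test cannot go below 0.1 with 3 against 3 libraries. Cumulus cells also express Gja1. Of the 15 cumulus and granulosa markers, 6 were at 0 in every library and 9 had counts in at least 1, and the part of such cells in the Gja1 result was not tested.

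The other connexin genes of the 41 had lower counts. Gjb5 had 0.614, 0.352 and 0 CPM in controls and 0 counts in the 3 siRNA libraries. Its summed level was at least 9.99-fold lower, taking a floor of 3 read pairs over the group and 4 units as 1 read pair. This bound pools the libraries of a group and leaves out their spread. Control 3 was at 0 as well, so the groups overlapped. Gjc1 (connexin 45) had 1.26 ± 0.773 and 1.12 ± 0.414 CPM, with overlapping groups (log2 -0.17, 95% interval -1.72 to 1.38).

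Tight junction genes held 3 of the 5 genes that DESeq2 called lower. F11r encodes junctional adhesion molecule A (ENSMUSG00000038235, chr1:171437535-171464603 on GRCm38), and it had 89.0, 194 and 110 CPM in controls and 46.1, 45.5 and 49.99 CPM after siRNA. The siRNA libraries lay close together and below every control, with control 2 the highest. F11r was 2.78-fold lower (log2 -1.47, SE 0.307), with an edgeR adjusted p of 0.0658, or 0.0442 with the filter of 50 units. Cldn4 encodes claudin 4, and it had 13.6, 11.9 and 4.28 CPM in controls and 2.21, 0.837 and 0.332 CPM after siRNA (ENSMUSG00000047501, chr5:134945119-134946934 on GRCm38). The groups did not overlap, although control 3 was nearer to siRNA library 1 than to the other controls. Cldn4 was 8.80-fold lower (log2 -3.14, SE 0.739, edgeR adjusted p = 0.0903, DESeq2 adjusted p = 0.000154). Without siRNA library 1 its log2 fold change was -4.08, and without siRNA library 3 it was -2.70.

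Tjp1, which encodes the scaffold ZO-1 (ENSMUSG00000030516, chr7:65296165-65527781 on GRCm38), had 36.9, 33.6 and 44.5 CPM in controls and 22.2, 16.6 and 19.0 CPM after siRNA. Every siRNA library lay below the lowest control, control 2. Tjp1 was 1.99-fold lower (log2 -0.99, SE 0.264, edgeR adjusted p = 0.12, DESeq2 adjusted p = 0.00739). The DESeq2 result for Tjp1 passed no longer without siRNA library 2 or 3 (adjusted p = 0.0607 and 0.0909). Ocln, which encodes occludin (ENSMUSG00000021638, chr13:100496507-100552718), had 30.9, 12.2 and 16.0 CPM in controls and 6.92, 9.57 and 12.3 CPM after siRNA, so siRNA library 3 overlapped control 2. Control 1 was high for Ocln, and without it the log2 fold change went from -1.04 (edgeR adjusted p = 0.29) to -0.55. Marveld2, which encodes tricellulin, lies 43.2 kb from Ocln on chromosome 13 and had 5.43 ± 2.15 and 5.95 ± 2.03 CPM (log2 0.13, 95% interval -0.86 to 1.12).

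The remaining tight junction genes had overlapping groups where they could be tested. Claudin genes Cldn6 and Cldn7 had log2 fold changes of -0.07 each, with 95% intervals of -1.62 to 1.48 and -1.46 to 1.31, and control 3 was the lowest library for both. Cgn, which encodes cingulin, had 26.8 ± 14.7 and 22.7 ± 6.36 CPM, and Tjp3 (ZO-3) had 0.457 ± 0.366 and 0.753 ± 0.167 CPM. Cldn3 lies 39.3 kb from Cldn4 on chromosome 5 and did not pass the filter on low counts, with at most 0.0352 CPM in controls and 0.211 CPM after siRNA.

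**Figure D2:**
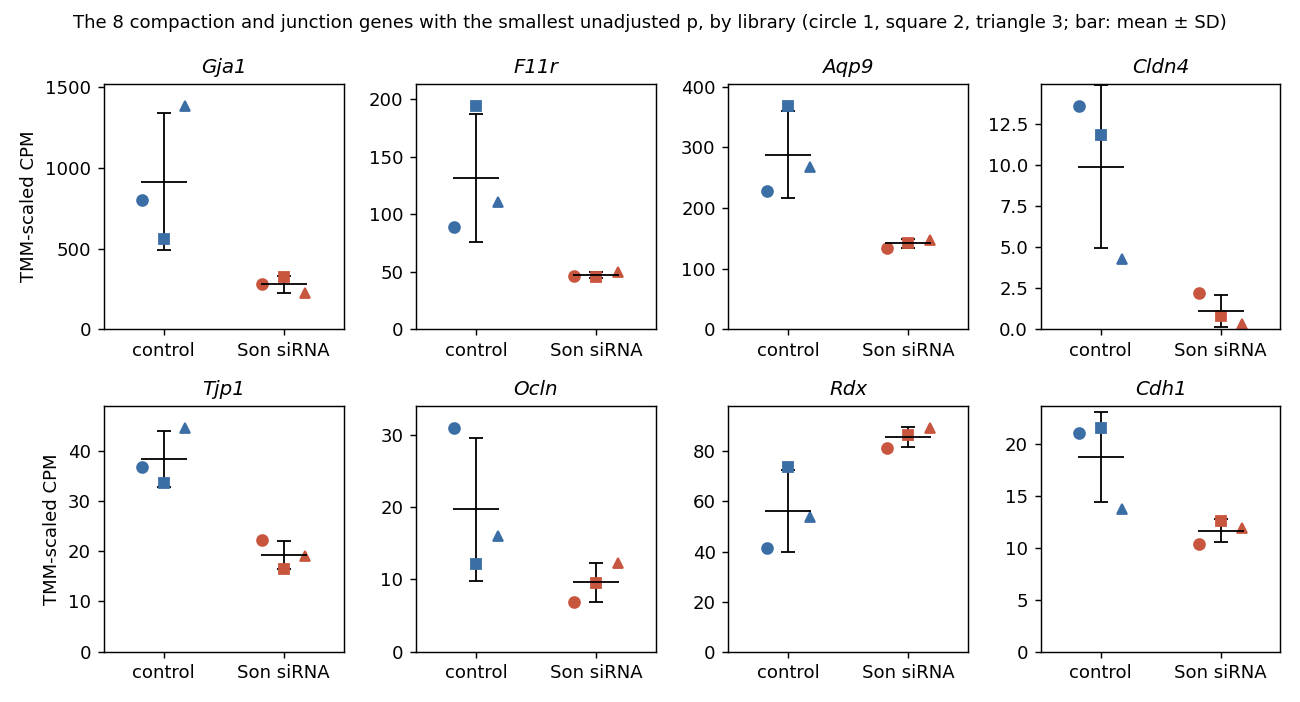
TMM-scaled CPM (y axes start at 0) of the 8 genes with the smallest unadjusted p in each control (blue) and Son siRNA (red) library, with the mean ± SD of 3 libraries. All 8 except Ocln have groups that do not overlap, and Rdx is the gene in which the siRNA libraries, at 81.2 to 89.2 CPM, lie above the controls.

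Water and ion carriers differed among themselves. Aqp9 encodes an aquaglyceroporin (ENSMUSG00000032204, chr9:71110659-71168682 on GRCm38), and it had 228, 368 and 268 CPM in controls and 134, 143 and 148 CPM after siRNA. All siRNA libraries lay below all controls, and the siRNA values spanned a narrow range. Its log2 fold change was -1.03 (SE 0.23, edgeR adjusted p = 0.0791, DESeq2 adjusted p = 0.00311). The DESeq2 call was lost without siRNA library 1 (adjusted p = 0.0662). Aqp3, another aquaglyceroporin gene, had 1.79, 1.01 and 0.654 CPM in controls and 0.033, 0.581 and 0.0906 CPM in siRNA libraries (log2 -2.29, SE 1.13, edgeR adjusted p = 0.389). The values in siRNA libraries 1 and 3 were at or below the floor of 3 read pairs, which was 0.0906 to 0.125 CPM per library. Aqp8, a water channel gene, was at 0 in the 3 controls and had 0, 0.0683 and 0.559 CPM after siRNA. The value in siRNA library 3 accounts for most of that count, and the summed level was at least 5.64-fold higher against the floor. Atp1b1, the beta 1 subunit of Na,K-ATPase, had 1.88 ± 0.721 and 2.53 ± 0.233 CPM (log2 0.43, 95% interval -0.65 to 1.51), with 18.7% of its exonic bases shared with Nme7.

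The 5 genes that DESeq2 called lower are shown with the bases upstream of a RefSeq transcription start (GRCm38.p6). They are the members with lower values by that test, and their windows can be read side by side. For Tjp1 and Aqp9 that start lies inside the annotated gene, downstream of its 5′ end (chr7:65527781 and chr9:71168682). Those windows are therefore not upstream of the whole gene. The F11r start also lies inside its gene, which begins at chr1:171437535, but the stretch shown ends before that base. The Gja1 window ends at chr10:56377299, short of the annotated 5′ end at chr10:56377330. Of the 41 genes, 33 matched the RefSeq promoter table, with 44 windows. Each stretch runs 5′ to 3′ on the gene's strand and ends at position -1 before the start. That of F11r ends instead at -27, which leaves out the run of exonic bases at its end. The full F11r window held 34 exonic bases, and those outside that run remain in the stretch. Aqp9 has a pair of listed starts, and the window without exonic bases is shown. Capitals mark matches, on either strand, to the TEAD, AP-2, GC box, CCAAT, TATA and AP-1 motifs spelled out after the sequences.
Gja1 (chr10:56377050-56377299, plus strand): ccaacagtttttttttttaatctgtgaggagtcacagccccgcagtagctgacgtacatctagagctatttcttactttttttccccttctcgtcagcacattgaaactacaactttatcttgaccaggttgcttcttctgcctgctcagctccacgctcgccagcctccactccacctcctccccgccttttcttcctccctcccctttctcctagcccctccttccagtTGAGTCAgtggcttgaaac
F11r (chr1:171437311-171437534, plus strand): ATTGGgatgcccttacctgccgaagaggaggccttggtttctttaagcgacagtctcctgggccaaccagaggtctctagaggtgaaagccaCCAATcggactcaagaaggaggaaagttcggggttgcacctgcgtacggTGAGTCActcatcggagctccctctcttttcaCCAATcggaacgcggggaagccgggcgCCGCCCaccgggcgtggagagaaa
Cldn4 (chr5:134946935-134947184, minus strand): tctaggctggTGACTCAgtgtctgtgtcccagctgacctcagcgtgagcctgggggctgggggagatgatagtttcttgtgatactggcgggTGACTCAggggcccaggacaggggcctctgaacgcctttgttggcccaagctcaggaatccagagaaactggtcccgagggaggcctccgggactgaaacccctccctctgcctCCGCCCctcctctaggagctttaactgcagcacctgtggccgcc
Aqp9 (chr9:71162634-71162883, minus strand): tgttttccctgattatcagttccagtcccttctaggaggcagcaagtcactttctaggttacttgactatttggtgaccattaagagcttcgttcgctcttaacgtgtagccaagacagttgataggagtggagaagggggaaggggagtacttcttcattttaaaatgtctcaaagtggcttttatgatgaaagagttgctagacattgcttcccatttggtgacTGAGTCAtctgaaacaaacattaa
Tjp1 (chr7:65371245-65371494, minus strand): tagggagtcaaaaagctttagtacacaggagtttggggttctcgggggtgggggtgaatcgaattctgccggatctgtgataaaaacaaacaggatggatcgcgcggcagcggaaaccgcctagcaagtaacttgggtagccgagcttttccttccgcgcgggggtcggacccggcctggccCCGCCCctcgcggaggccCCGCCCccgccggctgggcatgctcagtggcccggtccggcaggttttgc
None of these matches overlapped another. The AP-1 motif, TGANTCA, was added after the sequences had been read, so its matches there cannot be weighed against its share of all windows. It had 1 match each in the stretches of Gja1, F11r and Aqp9, 2 in that of Cldn4 and 0 in that of Tjp1. The other Aqp9 window had 0 matches. Over 250 bases, 6.75% of all 32851 promoter windows and 5 of the 44 windows of these genes held it. The GC box, GGGCGG, had 1 match in F11r, 1 in Cldn4 and 2 in Tjp1, and 32.7% of all windows and 28 of the 44 held it. F11r had 3 matches to CCAAT, which 33.8% of all windows and 15 of the 44 held. The TEAD motif, GGAATG, had 0 matches in the 5 stretches and was in 12.6% of all windows and 4 of the 44. The AP-2 motif, GCCNNNGGC, had 0 matches in them too, although 12 of the 44 windows held it, 27.3%, against 13.7% of all windows. The TATA box, TATAAA, also had 0 matches in them and was in 12.4% of all windows and 7 of the 44. The windows of the 41 genes had a median GC content of 60.2%, against 52.4% for all windows. These matches describe the letters in the windows and no binding was measured.

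Adhesion genes of the cadherin and catenin complex had means that were lower by less than 2-fold, or libraries that overlapped. Cdh1, which encodes E-cadherin (ENSMUSG00000000303, chr8:106603351-106670246), had 21.02, 21.5 and 13.8 CPM in controls and 10.4, 12.6 and 11.9 CPM after siRNA. Controls 1 and 2 stood apart from the siRNA libraries, while control 3 was just above them. The log2 fold change was -0.69 (SE 0.303, edgeR adjusted p = 0.338). Ctnna1 (alpha-catenin, which ties the complex to actin) had 51.3 ± 6.43 and 37.9 ± 2.33 CPM with groups that did not overlap (log2 -0.44, 95% interval -0.96 to 0.08). Ctnnb1 (beta-catenin) had 151 ± 22.4 and 159 ± 14.1 CPM with overlapping groups (log2 0.08, 95% interval -0.39 to 0.54), although 15.1% of its exonic bases overlap Ulk4 and a microRNA gene. Ctnnd1 (p120 catenin) had a log2 fold change of -0.29 and an interval of -0.83 to 0.25, and 61.2% of its exonic bases overlap a predicted gene. Jup, which encodes plakoglobin, had 2.34 ± 1.44 and 1.31 ± 0.294 CPM.

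Epcam, an epithelial adhesion molecule, had 69.1, 129 and 156 CPM in controls and 141, 123 and 138 CPM after siRNA, so that control 1 was the low library and the groups overlapped (log2 0.18, 95% interval -0.49 to 0.85). Vcl, which encodes the actin linker vinculin, varied in both groups, at 4.33 to 16.4 CPM in controls and 6.78 to 29.6 CPM after siRNA, and 25.5% of its exonic bases overlap Ap3m1.

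Of the 8 polarity and cortex genes, 7 had overlapping groups. Rdx (ENSMUSG00000032050, chr9:52047173-52088735) encodes radixin, which links membrane proteins to cortical actin, and it had 41.2, 73.7 and 53.6 CPM in controls and 81.2, 86.7 and 89.2 CPM after siRNA. All siRNA libraries were above the highest control (log2 0.61, SE 0.261, edgeR adjusted p = 0.321), and without control 2 edgeR's adjusted p was 0.0983 and DESeq2's was 0.00823. Its relatives Ezr (ezrin) and Msn (moesin) had log2 fold changes of 0.02 and 0.11, and Ezr ranged from 0.104 to 3.21 CPM among the controls alone. Within the PAR complex, Pard3 had 6.32, 34.5 and 23.3 CPM in controls and 49.6, 32.6 and 38.4 CPM after siRNA. Control 1 was low for Pard3 and control 2 overlapped the siRNA range (log2 0.91, 95% interval -0.27 to 2.09). Pard6b, Prkci and Prkcz, which encode its partner and the atypical protein kinases C, had log2 fold changes of 0.12, -0.03 and -0.02. Of these 3 intervals that of Prkci was the narrowest, at -0.67 to 0.62. Slc9a3r1, a scaffold that binds ezrin and is also called EBP50, had 4.53 ± 1.49 and 4.16 ± 1.23 CPM.

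Keratin and desmosome transcripts were scarce. The keratin genes Krt8 and Krt18, 23.7 kb apart on chromosome 15, encode the filament pair of simple epithelia and had at most 0.853 and 1.35 CPM in any library. Krt7 had counts in siRNA library 3 alone, below the floor. Krt19 had 0.385, 0.255 and 0 CPM in controls and 0 counts after siRNA. Its summed level was at least 6.66-fold lower by that floor, while the groups overlapped, with control 3 at 0. The desmosome genes Dsp (desmoplakin), Pkp2 (plakophilin 2) and Perp had means of 1.09 to 2.04 CPM in both groups with log2 fold changes of 0.07, -0.06 and 0.34. Perp ranged from 0.272 to 4.95 CPM among the siRNA libraries. The desmosomal cadherin genes Dsc2 and Dsg2 had at most 0.644 and 0.273 CPM. For Dsc2 a difference of the size seen for Gja1 was not detectable in these libraries. The 95% interval of Dsc2 ran from -2.36 to 4.79 on the log2 scale.

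Levels between genes can be compared only per length, as CPM per kilobase of annotated exon. In controls the highest mean levels on that scale belonged to Gja1 (89.1 ± 41.4), Aqp9 (69.5 ± 17.4), Epcam (53.8 ± 20.2), F11r (49.2 ± 20.8) and Ctnnb1 (29.1 ± 4.31). Neighbours in this order overlapped across the 3 controls, although within each control Ctnnb1 was the lowest of the 5. After siRNA the mean levels were 61.0 ± 4.51 for Epcam, 34.2 ± 1.67 for Aqp9, 30.7 ± 2.72 for Ctnnb1, 27.1 ± 4.86 for Gja1, 18.5 ± 0.878 for Rdx and 17.7 ± 0.916 for F11r. Every siRNA library gave these 6 genes in that same order, although across libraries Aqp9 overlapped Ctnnb1, Ctnnb1 overlapped Gja1 and Rdx overlapped F11r. Gja1 thus ranked 4 in each siRNA library, and it ranked 1, 4 and 1 in controls 1 to 3. Cldn4 ranked 9 by its mean in controls and 25 after siRNA.

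**Figure D3:**
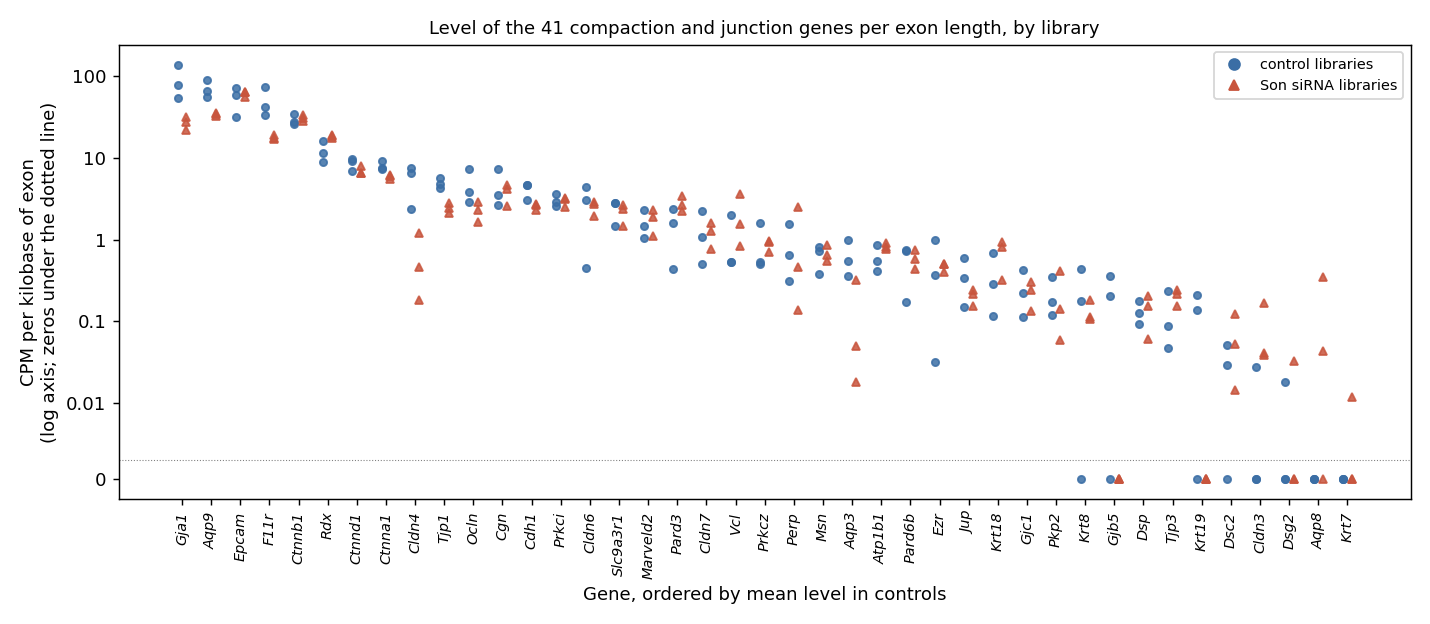
CPM per kilobase of exon (log axis, with zeros drawn under the dotted line) of the 41 genes in each control (blue circles) and Son siRNA (red triangles) library, ordered by the mean in controls. The 8 genes on the left stay above 5 in every library, and 8 genes on the right (Krt8, Gjb5, Krt19, Dsc2, Cldn3, Dsg2, Aqp8 and Krt7) include libraries at 0.

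Controls differed among themselves more than siRNA libraries did, by the median spread. Over the 15 tested genes with a mean of 10 CPM or more, the SD of log2 CPM had a median of 0.419 for controls and 0.161 for siRNA libraries. Of those 15 genes, control 2 was the highest control for 8 and control 1 was the lowest for 7. The 15 genes include 6 of the 8 whose siRNA libraries lay below all controls (all but Cldn4 and Aqp3) and the 1 that lay above.

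Other genes of the same structures had values on both sides of 0. The list held 124 further genes with a row, for junctions, polarity, the actomyosin cortex and transport, of which 91 passed the filter on low counts. By edgeR's test 0 were lower and 0 higher. Its unadjusted p was under 0.05 for 11 lower and 9 higher genes, and DESeq2 called 6 lower and 6 higher. Over all tested genes those shares were 8.86% and 5.88% by the unadjusted p, and 4.74% and 2.33% by DESeq2. The median log2 fold change of the 91 was 0.22, and 40 lay below 0. Cxadr, a virus receptor that sits at tight junctions, had 107, 50.2 and 64.6 CPM in controls and 30.0, 26.9 and 26.5 CPM in siRNA libraries, a log2 difference of -1.41 (SE 0.313, edgeR adjusted p = 0.0767). Panx1, a channel protein related to gap junction proteins, had 2.05, 1.36 and 1.90 CPM in controls and 5.71, 5.25 and 7.31 CPM in siRNA libraries (log2 1.78, SE 0.396, edgeR adjusted p = 0.078). In both genes the groups did not overlap. Without control 2, Cxadr passed the threshold (edgeR adjusted p = 0.0414).

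Rac1, a small GTPase that acts on the cortex, had 35.2, 53.1 and 29.0 CPM in controls and 78.1, 98.3 and 87.2 CPM in siRNA libraries (log2 1.17, SE 0.28, edgeR adjusted p = 0.0937, and 0.0387 without control 2). DESeq2 no longer called Rac1 without siRNA library 3 (adjusted p = 0.055), and 51.4% of its exonic bases overlap Daglb and the reads carry no strand. Other genes that DESeq2 called, named after their values were seen, included Cldn10, Myl6, Arvcf, Ect2 and Crb3 with lower values and Cldn12, Pkp4 and Slc4a7 with higher values. Their log2 fold changes ran from -2.42 (Cldn10) to 1.21 (Slc4a7), and the groups overlapped for Crb3. Claudins thus included genes with lower values (Cldn4, Cldn10) and 1 with higher values, Cldn12, at 9.66 ± 1.58 CPM in controls and 20.7 ± 0.336 CPM in siRNA libraries.

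**Figure D4:**
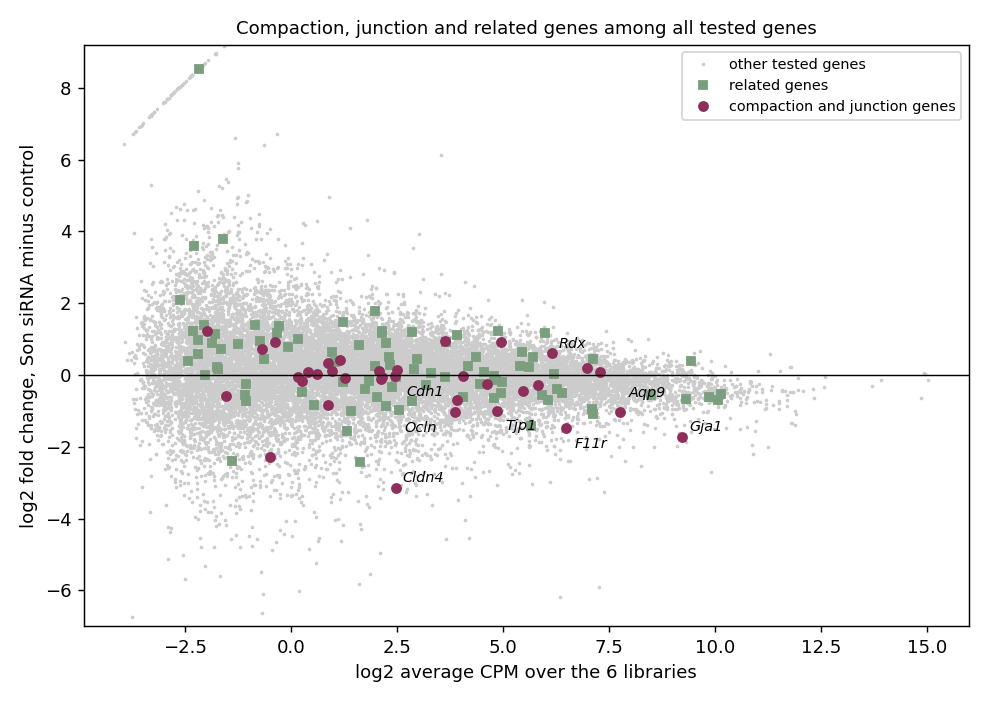
Log2 fold change (Son siRNA minus control) against log2 average CPM for the tested genes (grey, 30 of them outside the plotted range), the 91 related genes (green squares) and the 35 tested compaction and junction genes (purple circles). Gja1, Aqp9 and F11r lie below 0 at high average level and Cldn4 at -3.14, and Rdx lies at 0.61.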

How the data were processed

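RNA of 4-cell mouse embryos was sequenced in 3 control and 3 Son siRNA libraries, grouped by the sample titles. The authors deposited 1 table per library of estimated counts per gene, as whole numbers that are not normalized. They used StringTie 1.3.3b, HISAT2 2.0.5 and the build GRCm38, per the submitters' processing notes. No annotation release, filter or counting step is stated there. Multiples of 4 made up 26.4% to 32.4% of low values, in some libraries little above an even share of 1 in 4. Values under 4 units occurred as well, such as 1 unit for the related gene Magi2 in control 1. Not every value is therefore a whole number of 4-unit pairs. Taking 4 units as 1 read pair is an assumption that these shares and values do not settle. The floors and the fold bounds that use them rest on it. Floors and intervals cover counting error or library spread only, since PCR copies are not independent molecules.

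All genes were fitted together in edgeR 4.0.16 (R 4.3.3): filterByExpr, TMM, glmQLFit and glmQLFTest without a block, with Benjamini-Hochberg adjustment over 17788 genes. DESeq2 1.42.0, other filters and scalings, a replicate block, counts divided by 4 and leaving out each library were alternatives. The 95% intervals use edgeR's SE and degrees of freedom. Exon lengths, overlaps and coordinates came from GENCODE M21 (GRCm38), and promoter sequences from RefSeq (GRCm38.p6). The genes described, the related list and the markers were chosen with earlier results of these data known. Named in full were the 8 genes with the smallest unadjusted p, and the 4 of the related list, of which 1 is not reported here; other genes are given by range and count or in short.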

Additional observations from a re-analysis of the deposited data

How the results depend on the processing

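The direction of the 8 genes with the smallest p held under every setting run, and the number of calls did not. For the 41 genes edgeR called 0 lower; a filter of 50 units in 3 libraries gave 2, counts divided by 4 and rounded up gave 3, and DESeq2 gave 5. Leaving out 1 library gave 0 to 1 lower with edgeR, the 1 being Gja1 without control 2, and 4 to 7 lower and 0 to 3 higher with DESeq2 (chosen after seeing the data). Among related genes, DESeq2 called 6 lower and 6 higher and counts divided by 4 gave 1 lower. Leaving out 1 library gave 0 to 1 lower and 0 to 1 higher with edgeR, and 2 to 6 lower and 0 to 10 higher with DESeq2. With total counts, 13 of the 35 genes lay below 0 in place of 20, and without overlap 5 were lower and 2 higher (counts under other scalings were also chosen after seeing the data). With the replicate number as a block edgeR called 0 of the 35 tested genes and 0 related genes, and 18 fold changes lay below 0. Over all genes that fit called 0, as did each fit without an siRNA library, in place of 160 lower and 16 higher. Deviations of same-numbered libraries had correlations of -0.29, -0.333 and 0.054 over 6079 genes, and not every library correlated best with its own number. The largest values were 0.42, for control 1 with siRNA library 2, and 0.243, for control 2 with siRNA library 1. The main fit had no block because the labels give no shared source for same-numbered libraries. The cause of these correlations and of the differences between settings was not tested. Low counts limit the 10 of 41 genes with means under 1 CPM in both groups, among them the 4 keratin genes. The part of sequencing depth in those low counts was not tested.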
